A study of Drosophila melanogaster with 16 samples.

Results

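Glutathione S-transferases (GSTs) and UDP-glycosyltransferases (UGTs) were followed through the antennae and brains of starved and fed Drosophila melanogaster. The genes were taken by name, as every measured gene whose name on the array begins with GstD, GstE, GstS, GstO, GstT, GstZ or Ugt. This gave 51 probes of 32162, or 39 genes of 23972 genes and unmatched transcripts, namely 10 delta class genes (GstD), 10 epsilon class genes (GstE), the sigma class gene GstS1 and 18 genes named Ugt. The names GstO, GstT and GstZ were carried by 0 genes, since those classes stood under other names on this array. The gene named plainly Ugt is today Uggt, a glucosyltransferase that senses misfolded glycoproteins in the endoplasmic reticulum. It is not a detoxifying UGT and was kept only because its name met the rule.

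The study hybridised RNA from female flies, given an age of 5 to 7 days, to one-colour Agilent arrays to find transcripts that change with feeding state. The 4 groups of 4 arrays each were antennae and brains after 28 h of starvation and antennae and brains of flies at 0 h of starvation. The starved flies were kept on moist tissue paper and the fed flies on a sucrose solution. Each extract pooled 50 flies (100 antennae or 50 brains), and the 4 extracts of a group came from independent experiments with different flies. The strain was not given in the labels. A whole antenna holds sensory neurons, support cells, glia and epidermis, so fewer cells of a type and less RNA per cell cannot be told apart. No sequences of these probes or genes were used here.

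GSTs attach the tripeptide glutathione to reactive or fat-soluble compounds, and UGTs attach a sugar taken from a UDP-sugar, so that the products dissolve in water and can be exported. Both are conjugating enzymes of the second phase of detoxification. In insect antennae, members of both families are known as odorant-degrading enzymes, thought to clear odorants and plant compounds from the fluid around the sensory neurons. The delta and epsilon classes are the large insect GST classes, and their genes lie side by side in clusters of close relatives, as do the Ugt86D and Ugt35 genes. A probe may bind more than 1 close relative, which was not tested.

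A level is the log2 signal of a probe minus that of the array's 75th percentile, so that 0 stands for the 75th percentile. Where a gene had several probes, the one with the highest mean level stands for it. Levels of different probes are not comparable. Differences were tested with limma on the 8 arrays of each comparison, with Benjamini-Hochberg adjustment over all probes tested, and a gene was called at an adjusted p below 0.05. Values on 4 arrays are listed in the order of slides 1 to 4. Each slide held 1 array of every group at a fixed position, so position on the slide and group cannot be told apart.

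On the 16 arrays, 65.4 to 73.6% of the probes' spots were well above background and 0 were saturated, and arrays of one group correlated with r between 0.978 and 0.997. The share above background was lower on arrays labelled starved in both tissues (66.4 against 69.1% in antennae and 68.9 against 72.2% in brain, exact permutation p = 0.0286 for each, the smallest p that 4 against 4 arrays can give). The labelled tissues carried their markers. All 10 antennal markers, such as the co-receptor Orco and the odorant-binding protein lush, were above background on the antennal arrays. In each brain group 9 of them were above background on all 4 arrays. Their summed level in antennae was 47.1-fold (fed) and 50.2-fold (starved) that of brain. Of the 10, 9 were called higher in fed antennae and 10 in starved antennae. Ir76b was not called in fed flies (-0.09 log2 units, adjusted p = 0.871, limma). The 4 neuronal markers summed to 1.87-fold (fed) and 1.93-fold (starved) more in brain. The 8 photoreceptor markers were above background in both tissues, with a summed level of 136 to 233 times the 75th percentile in antennae and 265 to 363 times in brain. Fat body markers summed to 2.34-fold (fed) and 7.33-fold (starved) more in brain, and glial markers to 1.53-fold and 1.97-fold (exact permutation p = 0.0286 for each). Of the 6 glial markers, 4 were called lower and 2 higher in antennae of both states. The part of these markers in the tissue differences of the members was not tested. Markers of other tissues also moved with the labels in part, and further values stand beside later results.

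The 2 families stood high in the antennae. In fed flies, 25 of the 39 genes were higher in antennae than in brain and 4 were lower, with 3 tested but not called and 7 not tested because no group had all 4 arrays above background. In starved flies the same 25 genes were higher, joined by GstD7, and 4 were lower. GstE4, an epsilon GST, was 131-fold higher in fed and 167-fold higher in starved flies, and Ugt36Bb, a UGT whose probe was not above background in fed brain, was at least 50.8-fold higher in fed flies. The 39 genes were read against all genes. Over all genes tested, each read from 1 probe, 33.3% were higher and 41.4% lower in antennae of fed flies, and 36.3% were higher and 40.2% lower in starved flies. The median difference of the members tested was 2.57 log2 units in fed flies and 2.62 in starved flies, where the medians over all genes tested were -0.12 and -0.06. Of the 32 members tested in fed flies, 6 passed the background filter through 1 tissue only, so that the filter itself favoured a difference. Among the 26 members above background on all 8 arrays, 20 were higher and 3 lower with a median of 2.36. In starved flies 26 members were above background on all 8 arrays, and of these 21 were higher and 3 lower with a median of 2.34.

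**Figure D1:**
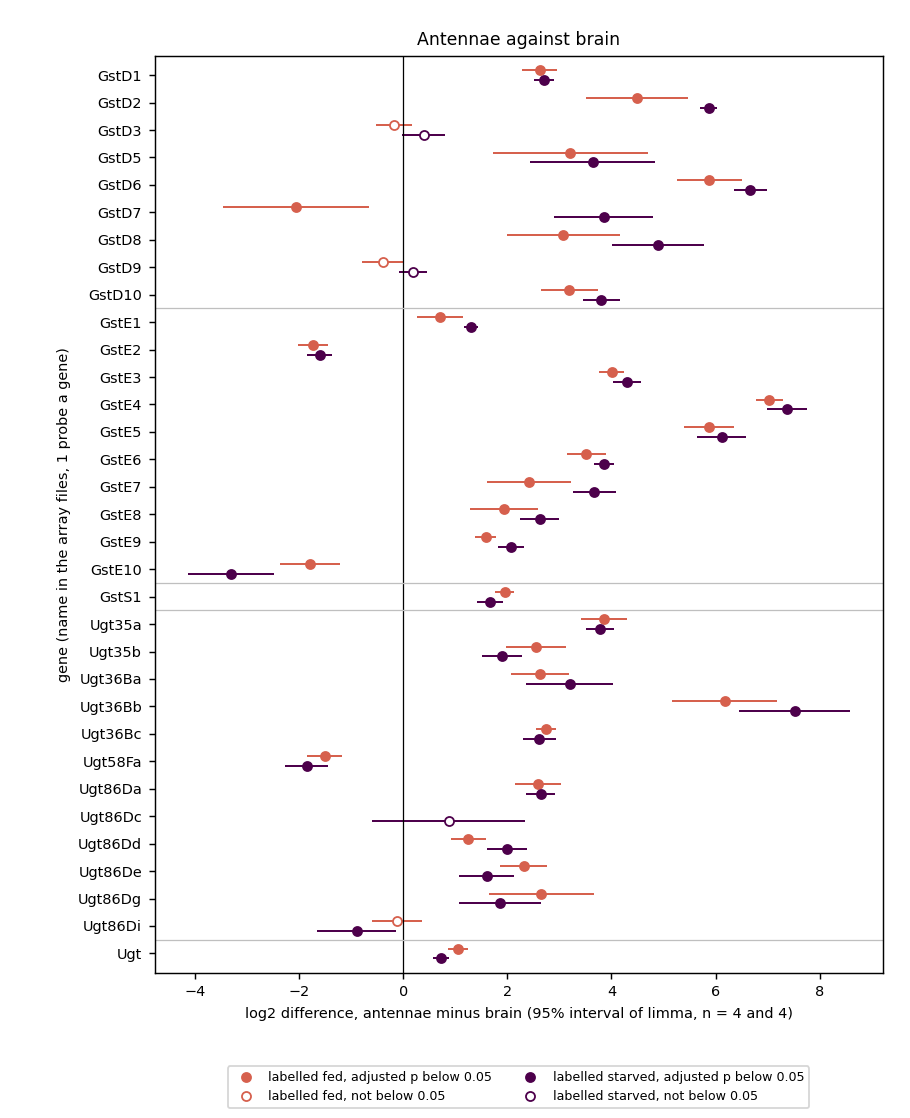
Difference in log2 level between antennae and brain (x axis, log2 units) for each member tested (y axis), in fed and in starved flies. Points are limma estimates from 4 arrays a group, bars are 95% intervals and filled points were called, with most members to the right of 0 and GstE10, GstE2 and Ugt58Fa to the left in both states.

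Of the epsilon GSTs, 8 of 10 were higher in antennae and 2 lower in both feeding states. GstE4 read 7.11, 7.30, 7.32 and 7.09 in starved antennae and 6.96, 6.96, 7.10 and 7.24 in fed antennae. In brain it read -0.13, -0.64, 0.20 and -0.13 on the starved arrays and 0.03, 0.03, -0.20 and 0.26 on the fed arrays. Antennae and brain were far apart on every slide, while the starved and fed arrays of each tissue overlapped. The tissue difference was 7.04 ± 0.12 log2 units in fed flies (SE, n = 4 a group, adjusted p = 1.33e-09, limma) and 7.38 ± 0.17 in starved flies (adjusted p = 2.79e-09, limma), and a further probe of the gene gave 7.80 and 8.34.

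GstE5 read 3.27, 3.35, 3.21 and 3.21 in starved antennae and 2.87, 2.97, 3.09 and 2.98 in fed antennae. In brain it read -2.95, -3.05, -2.20 and -3.23 (starved) and -2.44, -2.90, -3.52 and -2.71 (fed). Every antennal array was above every brain array, by 58.6-fold in fed flies (5.87 ± 0.21 log2 units, adjusted p = 5.54e-08, limma) and 69.4-fold in starved flies. GstE3 was 16-fold higher in fed antennae (4.0 ± 0.11, adjusted p = 1.28e-08, limma) and 19.7-fold in starved antennae. The remaining epsilon genes that were higher in fed antennae were GstE6 (3.51), GstE7 (2.41), GstE8 (1.94), GstE9 (1.58) and GstE1 (0.70), in log2 units. GstE1, whose product conjugates the lipid peroxidation product 4-hydroxynonenal, had the smallest difference called in fed flies, 1.63-fold (SE 0.19 log2 units, adjusted p = 0.00911, limma).

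GstE2 and GstE10 ran the other way. GstE2 read -0.04, -0.20, -0.26 and -0.21 in starved antennae and -0.33, -0.65, -0.49 and -0.78 in fed antennae, against 1.57, 1.51, 1.51 and 1.15 in starved brain and 1.35, 1.04, 1.30 and 1.0 in fed brain. All brain arrays were above all antennal arrays, by 3.33-fold in fed flies (-1.73 ± 0.13 log2 units, antennae minus brain, adjusted p = 3.99e-06, limma) and 3.05-fold in starved flies. GstE10 was near background in antennae (-5.62, -5.39, -6.10 and -6.61 in fed flies, 3 of 4 arrays above background) and read -4.13, -4.08, -3.98 and -4.36 in fed brain. It was 3.46-fold higher in fed brain (-1.79 ± 0.25 log2 units, antennae minus brain, adjusted p = 0.000221, limma). In starved antennae its probe was not well above background on any array (-6.57, -6.30, -7.07 and -8.15). Starved brain read -3.70, -3.55, -3.71 and -3.87, and by these values the gene was 9.96-fold lower in antennae. A fold given as "at least" compares the brighter group with the higher of the dim probe's own level and the dimmest level detected on each array. Such a bound holds only for the background correction of the main setting.

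Of the delta GSTs, 6 of 10 were higher in fed antennae, 1 was lower (GstD7), GstD3 and GstD9 were not called and GstD4 was not tested. GstD6 read -1.73, -1.75, -1.95 and -1.78 in starved antennae and -2.07, -2.19, -1.97 and -2.15 in fed antennae. Its probe was not well above background on any of the 8 brain arrays, where the values lay between -8.85 and -7.31. The gene was at least 46.6-fold higher in antennae of fed flies (adjusted p = 2.47e-07, limma) and at least 64.7-fold higher in those of starved flies (adjusted p = 1.93e-09, limma).

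GstD2 read 3.59, 3.61, 3.59 and 3.77 in starved antennae and 3.32, 3.00, 3.18 and 3.24 in fed antennae. In brain it read -2.23, -2.12, -2.31 and -2.27 (starved) and -1.68, -2.08, -1.58 and 0.13 (fed). The antennal arrays were all above the brain arrays, and fed brain array 4 was well above the other brain arrays. The difference was 22.4-fold in fed flies (4.49 ± 0.43 log2 units, adjusted p = 2.05e-05, limma) and 58.4-fold in starved flies (5.87 ± 0.07, adjusted p = 3.78e-10, limma).

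GstD1, the best known delta GST, which metabolises the insecticide DDT, read 4.67, 4.67, 4.71 and 4.65 in fed antennae and 1.81, 1.99, 1.92 and 2.50 in fed brain. In starved flies it read 5.24, 5.30, 5.35 and 5.13 in antennae and 2.69, 2.44, 2.62 and 2.48 in brain. The tissues did not overlap, and the antennal level was 6.14-fold (2.62 ± 0.14 log2 units, adjusted p = 6.41e-07, limma) and 6.49-fold that of brain in the fed and the starved state. GstD5, GstD8 and GstD10 were higher in fed antennae by 3.21, 3.07 and 3.19 log2 units. GstD3 and GstD9 differed by -0.18 and -0.40 log2 units in fed flies (adjusted p = 0.303 and 0.0696, limma) and by 0.39 and 0.18 in starved flies (adjusted p = 0.0788 and 0.174, limma).

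GstS1, the single sigma class GST, is known from flight muscle and acts on lipid peroxidation products. It read 2.09, 2.09, 2.24 and 1.99 in starved antennae, 2.25, 2.04, 2.23 and 2.11 in fed antennae, 0.29, 0.50, 0.68 and 0.25 in starved brain and 0.20, 0.32, 0.15 and 0.16 in fed brain. The tissues were apart on every array, by 3.86-fold in fed flies (1.95 ± 0.08 log2 units, adjusted p = 1.23e-07, limma) and 3.18-fold in starved flies, and its 4 probes were all higher in antennae, by 1.14 to 1.95 log2 units in fed flies. The 6 muscle markers summed to 42.0 to 66.6 times the 75th percentile in fed antennae and 13.3 to 20 times in fed brain (exact permutation p = 0.0286), and their part in the GstS1 result was not tested.

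**Figure D2:**
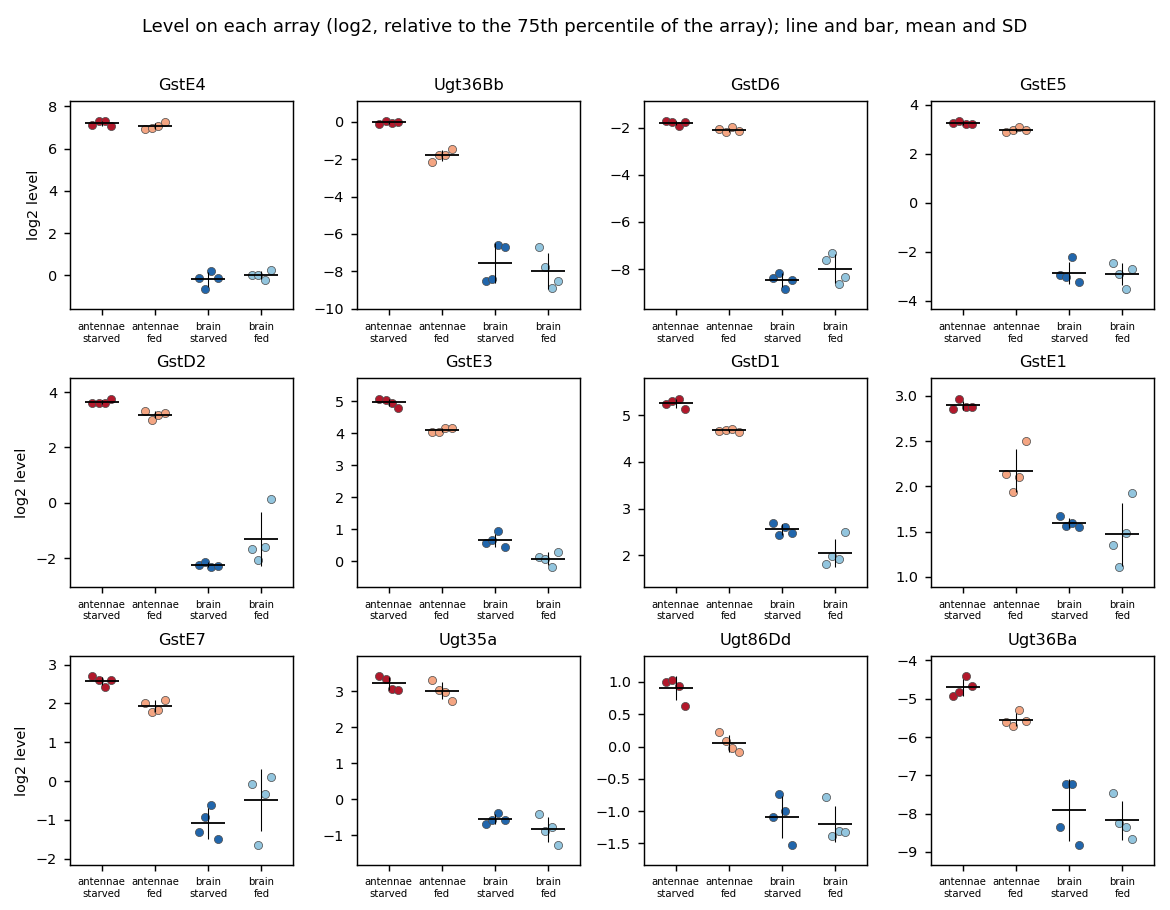
Log2 level relative to the 75th percentile of the array (y axis) on each array of the 4 groups (x axis) for 12 members that were higher in antennae or with starvation. Points are arrays, lines the mean and bars the SD (n = 4), and the antennal points lie above the brain points in every panel.

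Of the 17 UGT genes proper, 9 were higher in fed antennae, Ugt58Fa was lower, Ugt86Di was not called and 6 were not tested. The same 9 were higher in starved antennae. Ugt36Bb (today Ugt37E1) read -2.15, -1.78, -1.80 and -1.45 in fed antennae, and its probe was not well above background on any fed brain array (-6.70, -7.74, -8.91 and -8.52). It was at least 50.8-fold higher in antennae of fed flies (adjusted p = 3.3e-06, limma). In starved flies it read -0.13, 0.05, -0.06 and 0.00 in antennae and -8.53, -8.42, -6.58 and -6.69 in brain, where 1 of 4 arrays was above background, and the call was the same (adjusted p = 9.78e-07, limma), while the size of the difference rests on brain values near background.

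Its relative Ugt36Ba (today Ugt37C2) was also not well above background on any brain array. With -5.61, -5.71, -5.30 and -5.57 in fed antennae and -4.92, -4.82, -4.41 and -4.66 in starved antennae, it was at least 4.29-fold and at least 6.46-fold higher in antennae. Ugt36Bc, the neighbour of both, was higher by 2.74 log2 units in fed flies and by 2.61 in starved flies.

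Ugt35a and Ugt35b, both known as genes expressed in the antennae, stood high there. Ugt35a read 3.42, 3.35, 3.07 and 3.04 in starved and 3.32, 3.04, 2.99 and 2.72 in fed antennae, against -0.70, -0.58, -0.37 and -0.58 in starved and -0.42, -0.89, -0.77 and -1.27 in fed brain. The antennal arrays lay far above the brain arrays, by 14.5-fold in fed flies (3.85 ± 0.19 log2 units, adjusted p = 3.66e-07, limma) and 13.7-fold in starved flies. Ugt35b was 5.85-fold higher in fed antennae (2.55 ± 0.25 log2 units, adjusted p = 2.53e-05, limma) and 3.72-fold higher in starved antennae (1.89 ± 0.17, adjusted p = 1.09e-05, limma). Beside them in the genome, Ugt86Da, Ugt86Dd, Ugt86De and Ugt86Dg were higher in fed antennae by 2.58, 1.25, 2.31 and 2.65 log2 units.

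Ugt58Fa (today Ugt317A1) was the UGT that was lower in antennae in both states. It read -4.73, -5.13, -4.72 and -4.65 in starved and -4.63, -4.64, -4.92 and -5.0 in fed antennae, and -2.90, -2.60, -2.87 and -3.42 in starved and -3.63, -3.10, -3.11 and -3.29 in fed brain. No antennal array reached a brain array, and brain was 2.85-fold higher in fed flies (-1.51 ± 0.15 log2 units, antennae minus brain, adjusted p = 2.26e-05, limma) and 3.62-fold higher in starved flies. Ugt86Di differed by -0.12 log2 units in fed flies (adjusted p = 0.612, limma). In starved flies it was lower in antennae by the fit (-0.90, adjusted p = 0.0347, limma), although the groups overlapped (exact permutation p = 0.0857), its other probe (-0.89) was not called and the call was lost under 10 of 20 alternatives. Ugt, the endoplasmic reticulum sensor, was higher in antennae by 1.05 log2 units in fed flies and 0.72 in starved flies, and without it 24 members were higher and 4 lower in fed flies.

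The 6 members that were tested in no comparison were GstD4, Ugt37a1, Ugt37b1, Ugt37c1, Ugt86Dh and Ugt86Dj, and Ugt37c1 was above background on 0 of 16 arrays. Of the tissue comparisons, Ugt86Dc entered that of starved flies only and was not called. It was also tested, and not called, between feeding states in antennae and in the interaction. For dim probes the size of a tissue difference depended on the background correction. With the normexp correction and an offset of 50, the difference in fed flies was 1.99 log2 units for GstD6, 2.27 for Ugt36Bb, 0.37 for Ugt36Ba and -0.44 for GstE10, with the call kept for each. For GstD6, Ugt36Bb and Ugt36Ba these differences were smaller than the bounds given above.

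The enzymes that serve these families were set beside them. All 6 genes of glutathione supply were higher in antennae in both feeding states, among them Gclc and Gclm, the subunits of glutamate-cysteine ligase, the first step of glutathione synthesis (1.21 and 1.1 log2 units in fed flies, 1.52 and 1.17 in starved flies), and Ggt-1, a gamma-glutamyl transferase (3.15 and 2.88). Gss1 and Gss2, glutathione synthetase genes, were read from 1 shared probe. All 5 genes of glutathione and thioredoxin reduction were higher in both states, led by Zw, the glucose-6-phosphate dehydrogenase that supplies NADPH (3.90 and 3.33). Of the UDP-sugar enzymes, UGP, which makes UDP-glucose, was higher in antennae (0.72 and 0.48) and sgl, which oxidises it to UDP-glucuronate, was lower (-0.85 and -0.94).

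Of 6 regulators of detoxification genes, ss (6.25), cnc, the fly orthologue of Nrf2 (1.49), and maf-S (0.47) were higher in fed antennae and Keap1, the inhibitor of cnc, was lower (-0.36). In starved flies ss, cnc (1.55) and Hr96 were higher. The gene ss encodes the fly homologue of the aryl hydrocarbon receptor and Hr96 a nuclear receptor of xenobiotics. Among 9 other detoxification enzymes tested, 7 were higher and 2 lower in antennae of both states, led by the esterases Jhedup (7.13 in fed flies) and Est-6 (3.81) and with the sulfotransferase St3 lowest (-3.91). Of 3 efflux transporters tested, MRP, which exports glutathione conjugates, was higher in antennae by 1.02 log2 units in fed and 1.92 in starved flies, while Mdr49 was higher in fed antennae (0.53) and both Mdr49 and Mdr65 were lower in starved antennae (-0.37 and -0.44). A further 35 genes are known today as GSTs or UGTs but stood under other names on the array. Of the 28 that were tested, 23 were higher and 3 lower in antennae of both states, among them GstD11 (5.18), Ugt50B3 (4.48) and GstO3 (3.90) in fed flies.

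The comparison of feeding states asked which of these transcripts changed when flies were starved. Directions follow the deposited labels. By these labels the antennal neuropeptide allatostatin A (AstA) was lower on arrays labelled starved, which is opposite to the direction the study gives for it. Its mean was -3.76 on arrays labelled starved and -1.91 on arrays labelled fed (-1.85 ± 0.32 log2 units, n = 4 a group, adjusted p = 0.00546, limma). Its other probe gave -1.45 in antennae (adjusted p = 0.0564, limma), and in brain its probes gave 0.06 and 0.37 (adjusted p = 0.691 and 0.0236, limma). The study also gives the neuropeptides sNPF, in antennae, and CCHamide, in brain, as raised by starvation. By the labels the probes of sNPF gave -0.06 and -0.51 in antennae (adjusted p = 0.536 and 0.0453, limma). In brain the probes of CCHa1 gave -0.28, -1.64 and -0.13 (adjusted p = 0.03, 0.00512 and 0.2, limma) and that of CCHa2 gave 0.57 (adjusted p = 0.00236, limma). In both tissues the study counts more genes raised than lowered by starvation. By the labels more of all genes tested were called lower than higher, 17.2 against 11.1% in antennae and 20.9 against 11.6% in brain. With each array centred on its median more were called higher, 35.3 against 8.07% in antennae and 16.2 against 11.5% in brain. Whether the labels of the feeding states were exchanged was not tested. If they were in a tissue, each feeding direction there would turn, and the values given for its fed and starved flies would change places in the tissue comparisons. Every direction below is therefore that of the labels, and the feeding and tissue comparisons share arrays.

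In antennae, 15 of the 39 members were higher on arrays labelled starved and 0 were lower, with 17 tested but not called and 7 not tested. The epsilon GSTs made up most of them, with 8 of the 9 tested, beside 4 of 9 delta GSTs and 3 of 12 UGTs proper. The groups did not overlap for any of these 15, and over all genes tested 13.7% lay wholly higher and 17.5% wholly lower on arrays labelled starved. Of the 32 members tested, 31 were above background on all 8 arrays. Over all genes tested 11.1% were called higher and 17.2% lower. By limma at an unadjusted p below 0.05, 16 members were higher and 0 lower. The share of all genes at that threshold was not computed. The methods' t-test also called 0 lower. The changes were small, with a median of 0.34 log2 units over the members tested against -0.02 over all genes, and 26 of the 32 were above 0. Ugt36Bb was the single member past 2-fold.

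**Figure D3:**
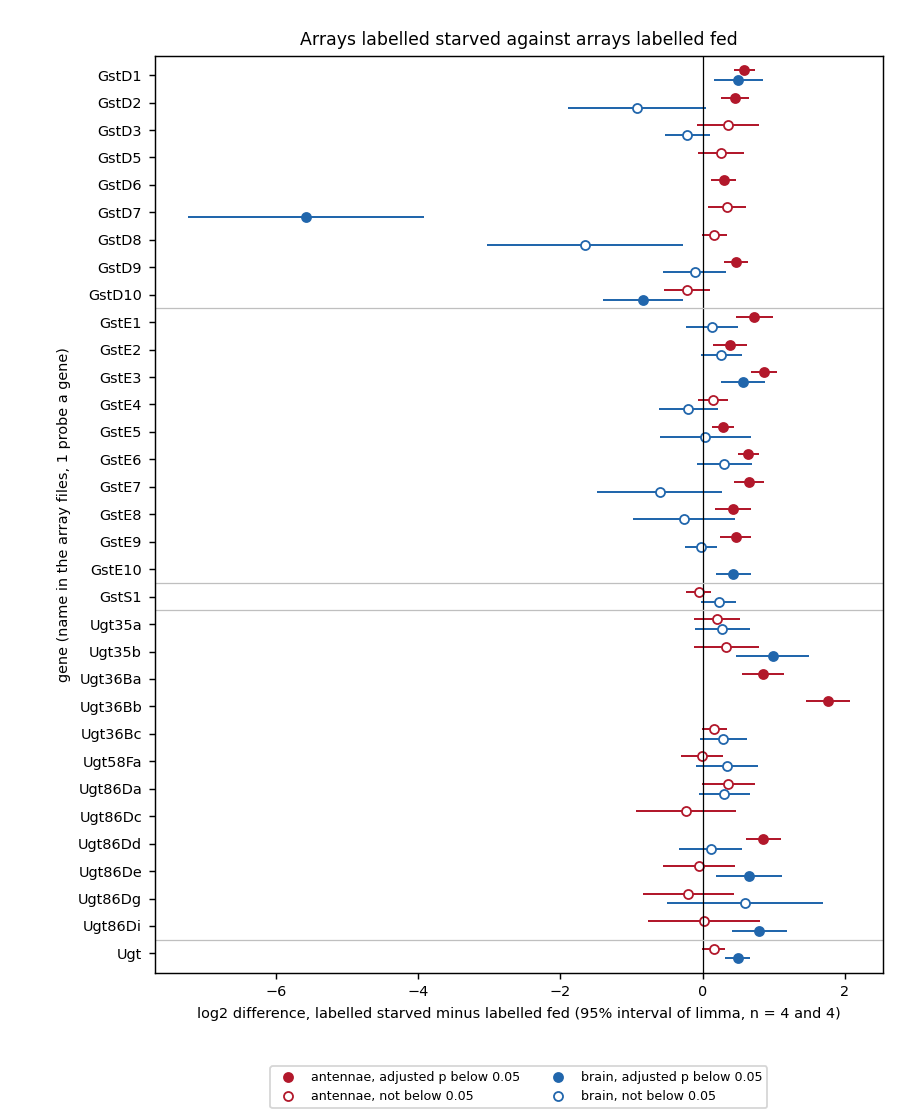
Difference in log2 level between arrays labelled starved and labelled fed (x axis, log2 units) for each member tested (y axis), in antennae and in brain. Points are limma estimates from 4 arrays a group with 95% intervals and filled points were called, with 15 filled points to the right of 0 in antennae and GstD7 far to the left in brain.

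Ugt36Bb showed the largest change in antennae, 3.38-fold higher on arrays labelled starved (1.76 ± 0.13 log2 units, adjusted p = 0.000475, limma). Its values, given above, were between -0.13 and 0.05 on arrays labelled starved and between -2.15 and -1.45 on arrays labelled fed. Ugt36Ba was 1.79-fold higher (0.84 ± 0.13, adjusted p = 0.00357, limma), and the neighbouring Ugt36Bc differed by 0.16 (adjusted p = 0.147, limma). Ugt86Dd, a UGT linked to nicotine resistance in the fly, read 1.01, 1.03, 0.94 and 0.63 on arrays labelled starved and 0.22, 0.08, -0.02 and -0.09 on arrays labelled fed. The groups were apart, by 1.81-fold (0.85 ± 0.11, adjusted p = 0.0018, limma). The 7 other Ugt86D and Ugt35 genes tested were not called, with Ugt35b at 0.33 (adjusted p = 0.238, limma, and called at 0.0246 with the slide as a block) and Ugt35a at 0.20 (adjusted p = 0.3, limma).

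Of the epsilon GSTs, GstE3 read 5.05, 5.04, 4.94 and 4.78 in antennae labelled starved and 4.04, 4.02, 4.14 and 4.16 in those labelled fed. It was 1.82-fold higher on arrays labelled starved with no overlap (0.86 ± 0.08, adjusted p = 0.000662, limma). GstE1 read 2.85, 2.97, 2.88 and 2.88 against 2.14, 1.94, 2.10 and 2.50, a 1.65-fold difference (0.73 ± 0.11, adjusted p = 0.00385, limma). GstE7 read 2.70, 2.60, 2.43 and 2.59 against 2.01, 1.77, 1.84 and 2.09, a 1.57-fold difference (0.65 ± 0.09, adjusted p = 0.00273, limma). In both genes each array labelled starved was above each array labelled fed. GstE6, GstE9, GstE8, GstE2 and GstE5 were higher by 0.64, 0.46, 0.43, 0.39 and 0.28 log2 units. GstE4, with its high antennal level, differed by 0.14 with feeding state (adjusted p = 0.262, limma).

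GstD1 was 1.5-fold higher in antennae labelled starved (0.58 ± 0.06, adjusted p = 0.00121, limma), between 5.13 and 5.35 against between 4.65 and 4.71. GstD9, GstD2 and GstD6 were higher by 0.47, 0.45 and 0.29 log2 units. GstD10 was not called by its brighter probe (-0.23, adjusted p = 0.254, limma) but lower by its other probe (-0.56, adjusted p = 0.0272, limma). GstS1 differed by -0.06 (adjusted p = 0.612, limma), and its 4 probes lay between -0.31 and 0.26 and were not called. The smallest differences called rested on the setting, since GstD6 was lost under 11 of 21 alternatives (the slide as a block among them, adjusted p = 0.0653, limma), GstE2 under 7 and GstE5 under 5, and a further probe of GstE5 gave 0.06 and was not called.

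Gut markers, 8 genes such as the trypsin betaTry, moved with the labels in antennae. Their summed level was 50.2, 96.4, 1.23 and 0.497 times the 75th percentile on arrays 1 to 4 labelled fed and between 0.116 and 0.390 on arrays labelled starved (exact permutation p = 0.0286), where Jon99Ci, Jon25Bii, LManV and lambdaTry were not above background. With only fed antennal arrays 3 and 4, an alternative chosen after seeing these values, 12 members were higher and 0 lower, and GstD6 (0.26, adjusted p = 0.12, limma) and GstE5 (0.23, adjusted p = 0.11, limma) were among those lost. The share of all genes in that setting was not computed. The 5 central brain markers, AstA included, summed to 1.89-fold less in antennae labelled starved (between 0.285 and 0.459 against between 0.471 and 0.958 times the 75th percentile, exact permutation p = 0.0286), and their part in the members' values was not tested. The 10 antennal markers summed to 1077 to 1321 on arrays labelled starved and 916 to 1263 on arrays labelled fed (exact permutation p = 0.314).

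The count depended on how arrays were scaled. With each array centred on its median, the median over all genes moved from -0.02 to 0.19 in antennae and from -0.07 to 0.14 in brain. In antennae 25 members were then higher and 0 lower, with a median of 0.54, where 35.3% of all genes tested were higher and 8.07% lower. With quantile scaling 18 members were higher and 0 lower in antennae, where 16.5% of all genes were higher and 9.4% lower.

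In brain, 7 of the 39 members were higher on arrays labelled starved and 2 were lower, with 19 tested but not called and 11 not tested. Those higher were 3 UGTs of the Ugt35 and Ugt86D cluster (Ugt35b, Ugt86Di and Ugt86De), the GSTs GstE3, GstD1 and GstE10, and the endoplasmic reticulum sensor Ugt, and those lower were GstD7 and GstD10. Over all genes tested 11.6% were higher and 20.9% lower. The members' median was 0.24 log2 units against -0.07 over all genes. Of the 28 tested, 26 were above background on all 8 arrays, with 7 higher and 1 lower, while GstD7 and Ugt86Dg passed through 1 group. GstD1 and GstE3 were called higher in both tissues. With the slide as a block, both lost the brain call (adjusted p = 0.0784 for GstD1 and 0.0648 for GstE3, limma).

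Ugt35b read 3.49, 3.16, 3.59 and 3.31 in brain labelled starved and 2.77, 2.37, 2.72 and 1.76 in brain labelled fed, and in antennae 5.41, 5.46, 5.46 and 4.8 against 5.21, 5.08, 5.04 and 4.48. The brain groups were apart and the antennal groups overlapped. The brain difference was 1.98-fold (0.98 ± 0.22 log2 units, adjusted p = 0.0131, limma). Ugt86Di read -1.78, -1.97, -1.82 and -2.20 against -2.37, -2.70, -2.73 and -3.14 in brain, 1.74-fold higher on arrays labelled starved without overlap (0.80 ± 0.17, adjusted p = 0.0101, limma), while its other probe gave 0.59 and was not called (adjusted p = 0.0922, limma). Ugt86De was 1.57-fold higher (0.65 ± 0.20, adjusted p = 0.0389, limma) with overlapping groups, reading -2.77, -2.97, -2.73 and -3.07 against -3.02, -3.58, -3.49 and -4.05, and the call was lost under 10 of 20 alternatives, the methods' t-test among them.

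Ugt read -0.28, -0.35, -0.28 and -0.36 in brain labelled starved and -0.96, -0.81, -0.71 and -0.76 in brain labelled fed. The groups were tight and apart, by 1.41-fold (0.49 ± 0.08, adjusted p = 0.00325, limma), and without this gene 6 members were higher and 2 lower. GstE3 read 0.57, 0.65, 0.93 and 0.45 against 0.15, 0.08, -0.17 and 0.30, 1.48-fold higher on arrays labelled starved without overlap (0.56 ± 0.14, adjusted p = 0.0163, limma). GstE10 was 1.35-fold higher (0.43 ± 0.11, adjusted p = 0.0174, limma), again without overlap. GstD1 was 1.42-fold higher (0.50 ± 0.15, adjusted p = 0.0354, limma), but the call was lost under 12 of 20 alternatives. Its fed array 4 at 2.50 lay within the starved range of 2.44 to 2.69 (exact permutation p = 0.0857). GstS1 differed by 0.22 in brain and was not called (adjusted p = 0.147, limma). Its 4 probes lay between -0.50 and 0.47 and differed in call, higher or not called.

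**Figure D4:**
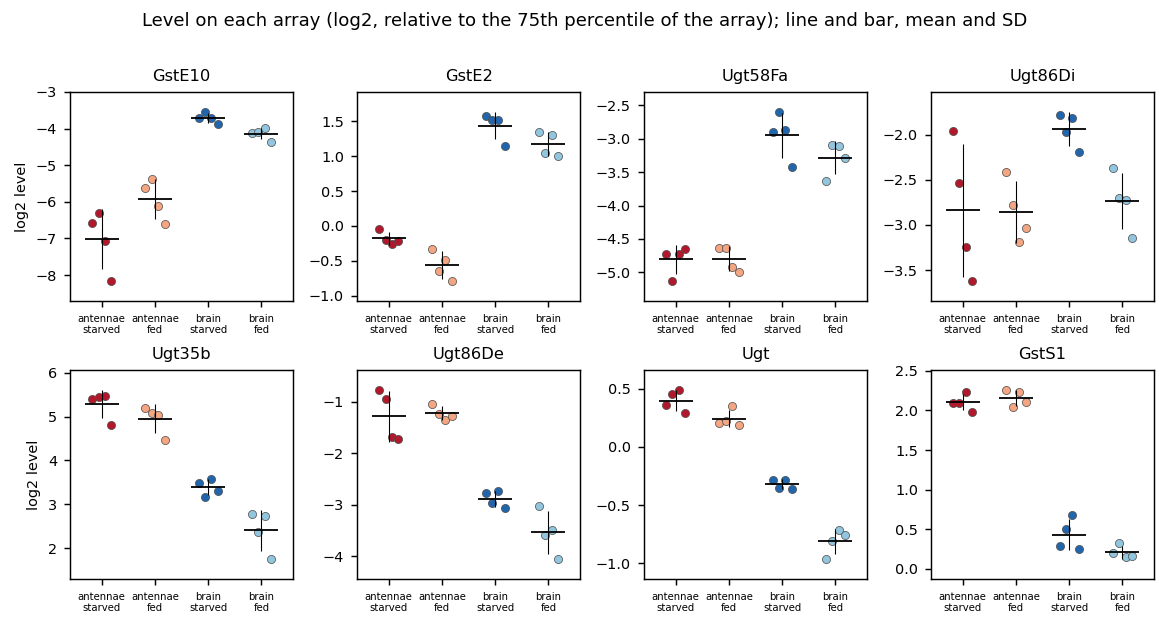
Log2 level relative to the 75th percentile of the array (y axis) on each array of the 4 groups (x axis) for 8 members that were lower in antennae, changed in brain or are the single gene of their class. Points are arrays, lines the mean and bars the SD (n = 4), and the brain groups labelled starved and fed are apart for Ugt35b, Ugt86Di, Ugt and GstE10.

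GstD7 stood apart from the other members. By its brighter probe it read 0.74, 1.55, -0.31 and -1.67 in brain labelled fed and -6.60, -4.74, -4.66 and -5.98 in brain labelled starved, where 3 of 4 arrays were above background. In antennae it read -2.15, -1.85, -1.76 and -2.20 (fed) and -1.80, -1.66, -1.56 and -1.56 (starved). Of the fed brain arrays 3 were above every antennal array and array 4 lay among them, and the starved brain arrays were below all others. The gene was 47.6-fold lower in brain labelled starved (-5.57 ± 0.72 log2 units, adjusted p = 0.0017, limma), by -7.34 to -4.31 on the 4 slides.

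The tissue difference of GstD7 turned with feeding state, from -2.07 ± 0.61 in fed flies (adjusted p = 0.0139, limma) to 3.85 ± 0.42 in starved flies (adjusted p = 3.9e-05, limma). The other probe of the gene did not show this. It read -4.10, -6.87, -6.57 and -6.98 in brain labelled fed (3 of 4 arrays above background) and -8.30, -5.83, -5.45 and -8.09 in brain labelled starved (2 of 4), so that the groups overlapped. By that probe GstD7 was higher in antennae in both states, by 3.93 log2 units in fed flies (SE 0.60, adjusted p = 0.000399, limma) and 5.09 in starved flies. Its mean with the brighter probe gave a fed tissue difference of 0.93 log2 units (adjusted p = 0.124, limma). Whether the brighter probe reads GstD7 alone was not tested.

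**Figure D5:**
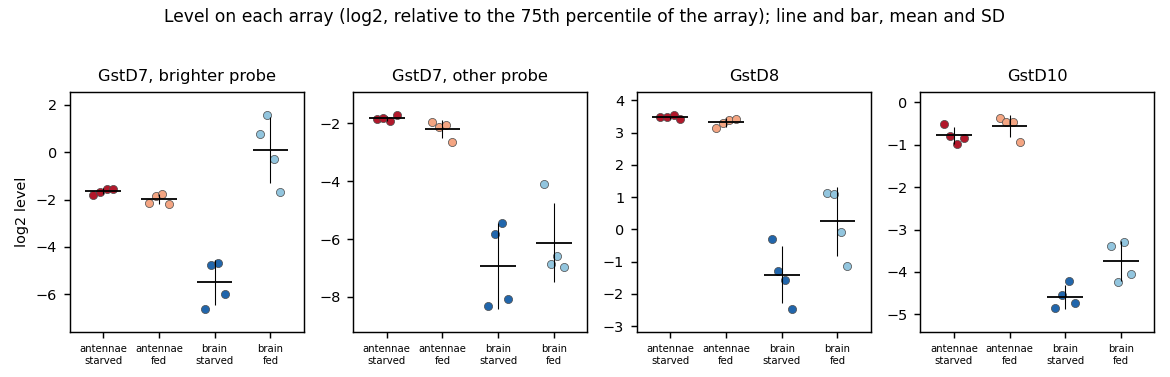
Log2 level relative to the 75th percentile of the array (y axis) on each array of the 4 groups (x axis). Panels show both probes of GstD7 and the delta class members GstD8 and GstD10. Points are arrays, lines the mean and bars the SD (n = 4), and the brighter GstD7 probe is high in fed brain and low in starved brain while the other probe overlaps between these groups.

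Of the 7 delta GSTs tested in brain, GstD1 was called higher, GstD7 and GstD10 lower, and 4 were not called. Besides GstD7, the tested delta GSTs GstD2, GstD8 and GstD10 were lower in brain labelled starved on every slide. GstD8 read -0.31, -1.31, -1.58 and -2.46 against 1.12, 1.09, -0.10 and -1.14, with overlapping groups (-1.66 ± 0.60 log2 units, adjusted p = 0.0651, limma, not called). GstD10 read -4.85, -4.54, -4.20 and -4.73 against -3.39, -4.24, -3.28 and -4.05, also with overlap (-0.84 ± 0.24, adjusted p = 0.0312, limma; exact permutation p = 0.0571), and was lost under 10 of 20 alternatives. The other probe of GstD10 gave -0.67 and was not called. GstD2 differed by -0.93 (adjusted p = 0.124, limma). Without fed brain array 4, on which GstD2 stood apart, 8 members were higher and 4 lower, and GstD2 was then lower by the fit (-0.45, adjusted p = 0.0295, limma). The share of all genes without that array was not computed.

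Fat body markers moved with the labels in brain. The summed level of 8 genes, among them the yolk protein genes Yp1 to Yp3 and the storage protein gene Lsp2, was between 97.9 and 176 times the 75th percentile on arrays labelled starved and between 29.7 and 52.5 on arrays labelled fed (3.21-fold, exact permutation p = 0.0286). Of the 6 tested, 5 were higher, and Fbp1 was not above background. Muscle markers (22.9 to 29.9 against 13.3 to 20) and Malpighian tubule markers (4.72 to 5.35 against 3.24 to 3.77) also summed higher. Their single genes were mixed. Of 6 muscle markers tested, 2 were called higher (Mlc2 and wupA) and 1 lower (up). Of 2 tubule markers tested, Irk3 was called higher (0.59 log2 units) and Best2 was not called (-0.10). Glial markers read 41.7 to 52.8 against 36.9 to 42.0 (exact permutation p = 0.0571). Gut markers read 7.18, 146, 219 and 74.7 on brain arrays 1 to 4 labelled starved. On brain arrays labelled fed they read 111, 6.58, 67.8 and 5.32 (exact permutation p = 0.257). Their sum in brain was 309-fold that in antennae in starved flies (exact permutation p = 0.0286). In fed flies it was 3.07-fold (exact permutation p = 0.486). The part of all these markers in the results of the members was not tested. With arrays centred on the median, 12 members were higher and 1 lower in brain, where 16.2% of all genes tested were higher and 11.5% lower. With quantile scaling 6 members were higher and 1 lower, where 13.2% of all genes were higher and 12.4% lower.

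Whether the change with feeding differed between the tissues was tested as an interaction over all 16 arrays. Of 33 members tested, 1 differed, GstD7 by its brighter probe, with a change in antennae 5.92 log2 units above that in brain (SE 0.79, 95% interval 4.22 to 7.62, adjusted p = 0.00195, limma). By the other probe the difference was 1.16 (adjusted p = 0.597, limma). A change more negative in antennae was found for 0 members by limma and by the methods' t-test. At an unadjusted p below 0.05, limma gave 10 members with a difference above 0 and 3 below 0. The share of all genes at that threshold was not computed, so these counts cannot be read against it. Over all genes tested 1.44% were called above 0 and 1.78% below 0. GstE10 differed by -1.52 by its brighter probe (adjusted p = 0.104, limma, and 0.0334 with the slide as a block) and by -0.65 by its other probe, which was called (adjusted p = 0.0291, limma). The members called in antennae and not in brain are therefore not shown to differ between tissues. For GstE7 and Ugt86Dd the tests of the difference gave 1.26 and 0.74 log2 units (adjusted p = 0.141 and 0.111, limma).

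Of the 6 genes of glutathione supply, Gclm was higher in antennae labelled starved (0.35 log2 units) and Ggt-1 in brain (0.49), and of the 5 genes of reduction Zw was higher in brain (0.71). Of the regulators tgo, the partner of ss, was higher in antennae (0.21) and ss lower in brain (-0.64). The UDP-sugar enzymes were not called in either tissue. The juvenile hormone epoxide hydrolase genes Jheh2, Jheh1 and Jheh3 were higher in antennae (1.26, 0.73 and 0.47), as was Cpr, the reductase that serves cytochrome P450 enzymes (0.53), and St3 was lower (-0.58). In brain 5 of these 9 other enzymes were higher, led by Est-6 (1.23). In brain the efflux transporter genes Mdr49 (1.31) and Mdr65 (0.64) were higher and MRP (-0.58) was lower, and the change differed between tissues for MRP (0.90, antennae minus brain), Mdr49 (-0.90) and Mdr65 (-0.66). Of the 28 tested genes that stood under other names, 5 were higher and 2 lower in antennae, where 11.1% and 17.2% of all genes were, and 7 were higher and 3 lower in brain, where 11.6% and 20.9% of all genes were. Their median change was 0.02 log2 units in antennae and 0.00 in brain, against -0.02 and -0.07 over all genes, with Ugt37A2 lower in both tissues (-2.69 log2 units in brain and -1.45 in antennae).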

How the data were processed

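RNA of 16 samples was labelled with Cy3 and hybridised to one-colour Agilent arrays with 45020 spots, of which 1417 were controls. The deposited scanner files hold intensity values made by the authors with Agilent Feature Extraction 9.1 (background-subtracted processed signal). A table of log2 values that the authors scaled to the 75th percentile was deposited as well and differed from the log2 scale used here by 1 constant per array. From the intensities, the log2 of the processed signal minus each array's 75th percentile over non-control spots was computed (values of the percentile 614 to 1028), outlier spots were left out and spots of a probe averaged. A probe was tested where at least 0.5 of its spots were well above background on all 4 arrays of 1 group. Replicates were 4 arrays a group, and their number limits the precision.

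Comparisons used limma 3.58.1 in R 4.3.3 (lmFit and eBayes, two-sided) with Benjamini-Hochberg adjustment over all tested probes at 0.05, and Python 3.11.15 with scipy 1.17.1 for exact two-sided permutation tests. Scripts were tested on simulated data. Names on the array were updated through RefSeq names of assembly Release 6 plus ISO1 MT, which matched 20743 probes and not 11419. All 51 member probes matched. Genes named with values on each array were the 5 highest and 5 lowest tissue differences in fed flies called in both states, the 6 largest changes each way with feeding per tissue, every interaction call, and GstD1, GstS1, Ugt35a and Ugt35b. Lists of marker genes and of pathway genes were taken from general knowledge. Members and lists were chosen with earlier results of these data known.

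Alternatives tried were a replicate block, the methods' t-test, no filter and a stricter filter on dim probes, normexp background correction, quantile, median and detected-probe scaling, 1 fit over 16 arrays, the mean of a gene's probes, the deposited log2 table, a 2-fold minimum, and leaving out each array. The others were added after seeing the data, leaving out the gene named Ugt and using only fed antennal arrays 3 and 4.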

Additional observations from a re-analysis of the deposited data

Results flagged for a closer look

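In 6 of 120 groups of 4 arrays (5.0%), 1 array lay far from the other 3 for a member gene (the gap to its nearest neighbour, as a share of the group's whole range, passed Dixon's critical value). Chance flags about 1 in 20 groups. In antennae labelled starved, array 4 was high for GstD2 (3.77, nearest 3.61, gap share 0.84) and low for Ugt35b (4.8, nearest 5.41, gap share 0.927), and array 2 was low for Ugt58Fa (-5.13, nearest -4.73, gap share 0.841). In brain labelled starved, array 4 was low for GstE2 (1.15, nearest 1.51, gap share 0.857). In brain labelled fed, array 4 was high for GstD9 (1.5, nearest 0.84, gap share 0.839) and array 1 was high for Ugt86Dd (-0.78, nearest -1.31, gap share 0.871).

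For GstD7 the change with feeding differed between the tissues by the test of the difference itself, by 5.92 log2 units (antennae minus brain, adjusted p = 0.00195, limma), from its brighter probe only. The other probe gave 1.16 (adjusted p = 0.597, limma).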

How the results depend on the processing

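Over 2324 recomputed values of 106 results on 22 named genes, 2183 kept their direction and side of the threshold, 87 lost the call, 23 gained it and 31 turned direction, of which 29 (in 10 results) were called in neither setting. The total includes the deposited log2 table, which holds the same signals and shared every call of a member. It also includes the 2-fold minimum, which can only remove a call. The 15 members higher in antennae labelled starved became 25 with median centring, 9 with 1 fit over 16 arrays and 1 with a 2-fold minimum, and 11 to 15 when each array was left out. The 7 higher in brain became 12 with median centring and 0 with the 2-fold minimum, and 5 to 8 without single arrays. The 2 lower in brain became 1 with the t-test, the stricter filter, quantile scaling, median centring or the 2-fold minimum, 4 with 1 fit over 16 arrays and 1 to 4 without single arrays (4 without brain fed replicate 4). The 1 member called above 0 by the interaction became 0 with the stricter filter, 3 with normexp and 1 to 3 without single arrays (3 without brain fed replicate 2 or 4), and the 0 below 0 became 2 with the mean of a gene's probes. A difference called only in the main setting turned direction for GstD7 between tissues in fed flies with the mean of its probes (0.93, adjusted p = 0.124, limma). One called only in the alternative turned for Ugt58Fa in antennae with quantile scaling (0.33, adjusted p = 0.0493, limma, against -0.01). Among differences called in neither setting, Ugt58Fa in antennae was 0.12 with normexp, 0.20 with median centring, 0.15 with only fed antennal arrays 3 and 4 and -0.0765 to 0.097 without single arrays. Ugt86De in antennae was 0.0218 with quantile scaling, 0.15 with median centring, 0.0292 with only fed antennal arrays 3 and 4 and -0.23 to 0.0905 without single arrays. Ugt86Di in antennae was -0.18 with the mean of its probes and -0.28 to 0.28 without single arrays, and GstS1 in antennae 0.15 with median centring. In brain GstE4 was 0.000396 with median centring, GstE5 -0.016 with normexp, -0.14 with the mean of its probes and -0.18 to 0.19 without single arrays, and Ugt86Dd -0.00403 to 0.26 without single arrays. In the interaction GstE5 was -0.0466 with quantile scaling, Ugt35a 0.0874 with only fed antennal arrays 3 and 4 and -0.21 to 0.0672 without single arrays, and GstD1 -0.0671 to 0.16 without single arrays. Replicate numbers are slide numbers, and same-numbered arrays did not deviate together (correlations of -0.254 to 0.286 over 24 pairs). With the replicate block 17 members were higher in antennae, where 9.74% of all genes tested were higher and 15.1% lower. In brain 5 members were then higher and 3 lower, where 8.82% of all genes were higher and 17.3% lower. By the interaction 1 member (GstE10) was below 0 with the block, where 1.58% of all genes were. For the fits without single arrays the shares of all genes were not computed. The cause of these shifts was not tested. Differences of probes near background are bounds under the main background correction only, and 4 arrays a group give no exact p below 0.0286.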
